A study of Homo sapiens with 12 samples.

Results

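The genes described here are the zinc finger genes of distal chromosome 19: the protein-coding genes of human chromosome 19 whose symbol begins with ZNF and whose start lies above position 17100000 (GRCh38). They were chosen by name and position from the annotation in the count table. They number 201 of the 58735 genes in the table, and 201 of its 515 protein-coding ZNF genes. Of the 201, 186 (92.5%) had enough counts to be tested in at least 1 comparison and 182 in all 5 comparisons. Of the 15 members tested in none, ZNF536 and ZNF816-ZNF321P had no read in any library, and the other 13 had totals of 1 to 93 reads over all libraries.

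Chromosome 19 carries long tandem clusters of C2H2 zinc finger genes that arose by repeated duplication, and most of their proteins join an array of DNA-binding fingers to a KRAB domain. The KRAB domain recruits the co-repressor TRIM28, which brings the histone methyltransferase SETDB1 and heterochromatin proteins to DNA, and many of these repressors are known for silencing retroelements. ATG7, the gene targeted in the study, encodes the E1-like enzyme that autophagosome formation needs.

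The study measured RNA in HLE-B3 cells, an immortalized human lens epithelial line, to see how cells with and without ATG7 differ under oxidative stress. The 4 groups are WT untreated (0 h), WT with 200 μM H2O2 for 12 h, ATG7 KO untreated (0 h) and ATG7 KO with 200 μM H2O2 for 12 h, with 3 biological replicates each and 12 libraries in all. The knockout was made with CRISPR/Cas9, the study describes picking single clones, and the labels do not say which clones were sequenced, so genotype and clone cannot be told apart. Untreated cells were collected at 0 h, so H2O2 and 12 h of culture cannot be told apart either. The libraries held 15602183 to 17659496 reads assigned to genes, with a median of 17205174.

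ATG7 stood at 2.81, 2.64 and 2.21 FPKM in the untreated WT libraries and at 3.78, 3.42 and 3.43 FPKM in the untreated libraries labelled ATG7 KO. With H2O2 it stood at 1.99, 1.91 and 1.97 FPKM in WT and at 2.11, 2.12 and 2.35 FPKM in ATG7 KO. ATG7 RNA was thus higher, not lower, in every library labelled ATG7 KO than in every WT library of the same treatment. A small Cas9 edit can leave the RNA in place, so these levels do not check the label. The study's methods used western blots to check picked clones for loss of ATG7, and protein was not measured in the files used here, and "ATG7 KO" below stands for the libraries so labelled.

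Among markers of lens epithelium, VIM (191 to 373 FPKM), CDH2 (97.9 to 184 FPKM), SIX3 (1.85 to 3.21 FPKM) and PAX6 (0.505 to 1.35 FPKM) were detected in every library. The crystallin genes CRYGS (0.679 to 2.20 FPKM) and CRYAB (0 to 1.98 FPKM) were low, and CRYAA, FOXE3, MAF, PROX1, CDH1 and BFSP2 were at or near 0, with SOX1 at 0 in all 12 libraries. Of the 15 lens markers, 7 were tested in WT, where CRYAB and BFSP1 rose with H2O2 (log2 fold changes 3.24 and 1.24) and CRYGS, CDH2 and PAX6 fell (-0.90, -0.72 and -0.71). Over all genes tested in WT 30.9% rose and 30.1% fell. In ATG7 KO CRYAB stood at 0 to 0.0356 FPKM untreated and 0.866 to 1.0 FPKM with H2O2, and CDH2 fell (-0.66). CRYAB passed the count filter there through the H2O2 libraries alone, so its call as higher adds nothing to these values. Over all genes tested in ATG7 KO 13.6% rose and 12.4% fell. Without ATG7 KO untreated replicate 1, 1 of the 7 lens markers tested was called higher and 4 lower, beside 29.8% and 28.6% of all genes. Between the lines with H2O2, CDH2 was higher in ATG7 KO and VIM, PAX6 and CRYAB lower, beside 27.7% and 27.9% of all genes tested. VIM stood at 191 to 196 FPKM there, against 290 to 307 FPKM in WT. Untreated, SIX3 had the smallest adjusted p of the 6 tested (0.0194, log2 fold change -0.62), and without that replicate 1 of 7 was called higher and 3 lower, beside 18.2% and 17.9% of all genes tested. Markers of endothelium, blood, neurons and keratinocytes were under 1 FPKM in every library except the neuronal marker SYT1, at 0.510 to 2.51 FPKM, which was highest in the untreated ATG7 KO libraries (2.07 to 2.51 FPKM); its part in the results was not tested. Of the markers under 1 FPKM, PECAM1 stood at 0.297 to 0.445 FPKM in untreated ATG7 KO and at no more than 0.141 FPKM elsewhere, SNAP25 at 0.167 to 0.386 FPKM in untreated ATG7 KO and at no more than 0.155 FPKM elsewhere. KDR stood at 0.0898 to 0.146 FPKM in WT, 0.222 to 0.291 FPKM in untreated ATG7 KO and 0.290 to 0.507 FPKM in ATG7 KO with H2O2. DSG3 had 0 FPKM in all untreated libraries, 0.0961 to 0.188 FPKM in WT with H2O2 and 0.386 to 0.433 FPKM in ATG7 KO with H2O2. Not all such markers were higher in ATG7 KO. The blood marker PTPRC stood at 0.0737 to 0.119 FPKM in untreated WT and at no more than 0.0692 FPKM elsewhere. With H2O2, the endothelial marker CDH5 stood at no more than 0.0758 FPKM in ATG7 KO and at 0.0748 to 0.145 FPKM in WT. Untreated, CDH5 stood at 0.0698 to 0.249 FPKM in ATG7 KO and at 0.0983 to 0.194 FPKM in WT.

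ATG7 KO untreated replicate 1 stood apart from the other 11 libraries. Its mean correlation with its replicates was 0.968, and the other libraries had 0.977 to 0.988. Genes longer than the median took 59.8% of its nuclear-gene reads, against 68.6% in both of its replicates, and members together took 1869 CPM, against 2075 and 2141. The main counts and medians that use this library are given with and without it. The splits by KRAB match and by promoter motif and the correlations with fingers, gene length and protein length were made only with it. So were the fits by DESeq2 and limma, with other scalings or filters, with the replicate block and with all 12 libraries. The share of long genes also moved with the groups: it was 68.9% to 69.2% in untreated WT, 63.1% to 63.4% in WT with H2O2 and 66.9% to 67.4% in ATG7 KO with H2O2. Its part in the differences below was not tested, and values with a gene length correction are given where they move a result.

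**Figure D1:**
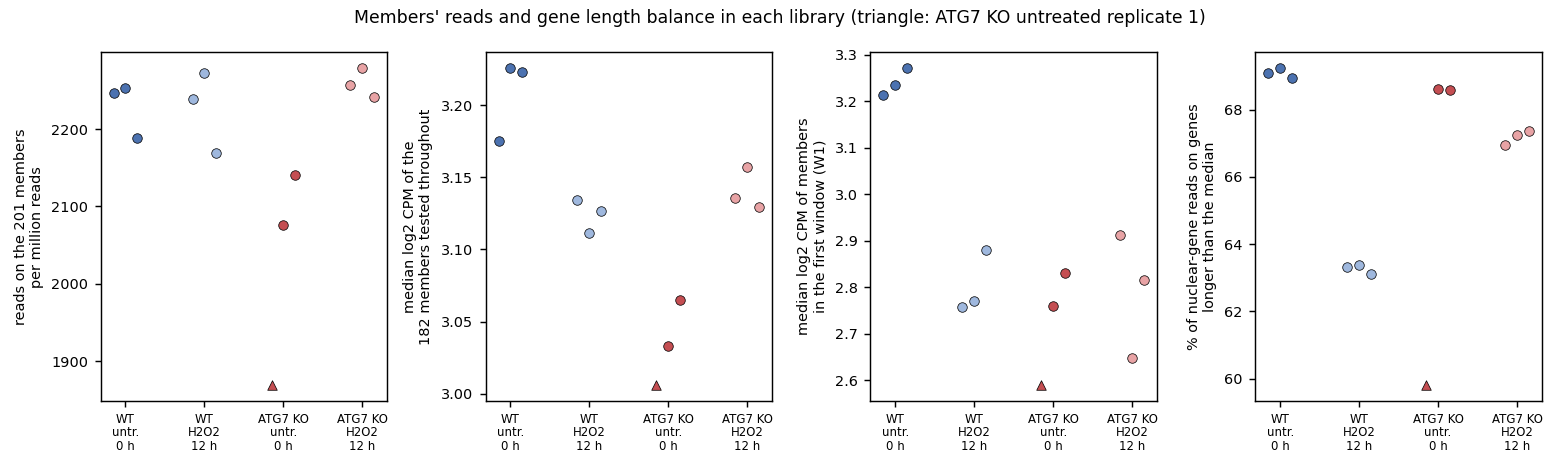
The 4 plots give, for each of the 12 libraries, the reads on the 201 members in CPM, the median log2 CPM of 182 members, the median log2 CPM of members in the first window of the region (W1), and the percent of nuclear-gene reads on genes longer than the median. ATG7 KO untreated replicate 1 (triangle) is lowest in the members' reads, at 1869 CPM, and in the share of long genes, at 59.8%.

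Most members were weakly expressed. Their median level, as mean FPKM over all libraries, was 1.44, against 2.60 for protein-coding genes with a read; 146 members had a mean over 1 FPKM in at least 1 group, 16 over 5 and 3 over 10. ZNF146 was the highest of all, at 38.6, 34.3 and 33.6 FPKM in untreated WT and 42.4, 42.5 and 39.7 FPKM in ATG7 KO with H2O2. It was followed by ZNF787, ZNF260, ZNF580, ZNF574 and ZNF581. A pattern for the KRAB A box matched the encoded protein of 166 members and not that of 35, and all 6 of the highest members were among the 35. The median level was 1.36 FPKM for members with a match, the highest of them at 5.55 FPKM, and 3.04 FPKM for members without one. The encoded proteins had a median of 595 residues and 12 C2H2 fingers, with up to 36 fingers in ZNF208. ZNF738, with 137 residues, had a KRAB match and no finger.

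In WT cells with H2O2 some members rose and others fell, as did genes at large. The neighbouring genes ZNF28, ZNF468 and ZNF600 rose 2.35 to 2.84-fold, while many members of the short-arm cluster next to the centromere fell, ZNF681 to 0.294 of its untreated level and ZNF714 to 0.406. Of 183 members tested in WT, 34 rose and 51 fell (edgeR, adjusted p under 0.01; 3 libraries a group). That is 18.6% and 27.9% of members, where 30.9% of all genes tested rose and 30.1% fell. With all 12 libraries in the fit 28 rose and 29 fell, and with the gene length correction 40 and 40, so the larger number of falls depended on the fit. By the study's thresholds, which also ask for more than a 2-fold change and a mean over 1 FPKM in a group, 7 members rose and 4 fell, against 7.3% and 5.24% of all genes tested. These are bulk measurements, in which fewer cells with an RNA and less RNA per cell cannot be told apart.

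ZNF468 stood at 1.29, 1.16 and 1.06 FPKM in untreated WT and at 3.48, 3.38 and 3.13 FPKM with H2O2. ZNF28 went from 3.15, 2.14 and 2.54 FPKM to 6.10, 6.63 and 5.71 FPKM. ZNF600 went from 1.15, 1.31 and 1.16 FPKM to 3.01, 3.37 and 2.85 FPKM. In each of these 3 genes the lowest treated library was above the highest untreated one. Here and below, the strongest calls of the pairwise comparisons were named among members without such overlap. Their lack of overlap follows from that choice and adds nothing to the calls. The log2 fold change was 1.5 for ZNF468 (SE 0.09, adjusted p = 1.64e-20), 1.23 for ZNF28 (SE 0.10, adjusted p = 2.44e-13) and 1.34 for ZNF600 (SE 0.11, adjusted p = 3.09e-15). The 3 genes lie on the minus strand at chr19:52838008-52890375, chr19:52797409-52857600 and chr19:52749942-52786807. ZNF28 and ZNF468 overlap there, and ZNF468 also overlaps ZNF320, so some reads may be shared among them, while ZNF600 overlaps no other gene of the table.

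ZNF30, on the long arm at chr19:34926903-34945170, stood at 1.25, 1.01 and 1.29 FPKM in untreated WT and 3.16, 3.31 and 3.13 FPKM with H2O2. ZNF296, a gene without a KRAB match, went from 1.25, 0.530 and 0.969 FPKM to 3.62, 3.13 and 3.40 FPKM. The groups did not overlap for either gene, and their log2 fold changes were 1.43 (SE 0.16, adjusted p = 9.39e-11) and 1.88 (SE 0.22, adjusted p = 3.62e-10). Among the most abundant members, ZNF787 rose by a log2 fold change of 0.94 (adjusted p = 2.6e-15) and ZNF146 by 0.35 (adjusted p = 4.17e-08), while ZNF260 had -0.28 (adjusted p = 7.45e-05).

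ZNF681 showed the deepest fall among the members that also passed 1 FPKM. It stood at 1.26, 1.13 and 1.03 FPKM in untreated WT and at 0.236, 0.340 and 0.430 FPKM with H2O2, a log2 fold change of -1.77 (SE 0.19, adjusted p = 3.27e-11). ZNF714 went from 3.81, 3.61 and 3.86 FPKM to 1.68, 1.41 and 1.49 FPKM, a log2 fold change of -1.30 (SE 0.09, adjusted p = 3.07e-17). The untreated libraries lay above all treated ones for both genes. ZNF471 on the long arm, at 1.91, 2.20 and 2.05 FPKM before and 0.982, 1.06 and 0.831 FPKM after, had -1.11 (SE 0.13, adjusted p = 9.88e-11). ZNF571 and ZNF230 fell by 1.08 and 0.95 on the log2 scale.

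Along the chromosome the members were grouped into 8 windows by gene start, W1 to W8. W1, from 17 to 25 Mb, holds 37 members, of which 35 have a KRAB match. Of its 31 members tested in WT, 15 fell with H2O2 and only ZNF430 rose, with a median log2 fold change of -0.40. The other 69 protein-coding genes tested in W1 went the other way, 28 of them up and 11 down, with a median of 0.14. The median level of W1 members was 3.21 to 3.27 log2 CPM in untreated WT libraries and 2.76 to 2.88 with H2O2. With the gene length correction 10 members of W1 fell and 3 rose, with a median of -0.30. In W5, from 43 to 45 Mb, 7 of 22 members fell (ZNF112, ZNF221, ZNF224, ZNF225, ZNF226, ZNF230 and ZNF404), with a median of -0.24, and 3 fell without WT H2O2 replicate 1 and 4 by DESeq2. In W8, from 55 to 59 Mb, 13 of 56 members rose and 7 fell. Over all genes tested in WT 30.9% rose and 30.1% fell, so the share that fell in W5 was near that of all genes and both shares in W8 were below it.

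**Figure D2:**
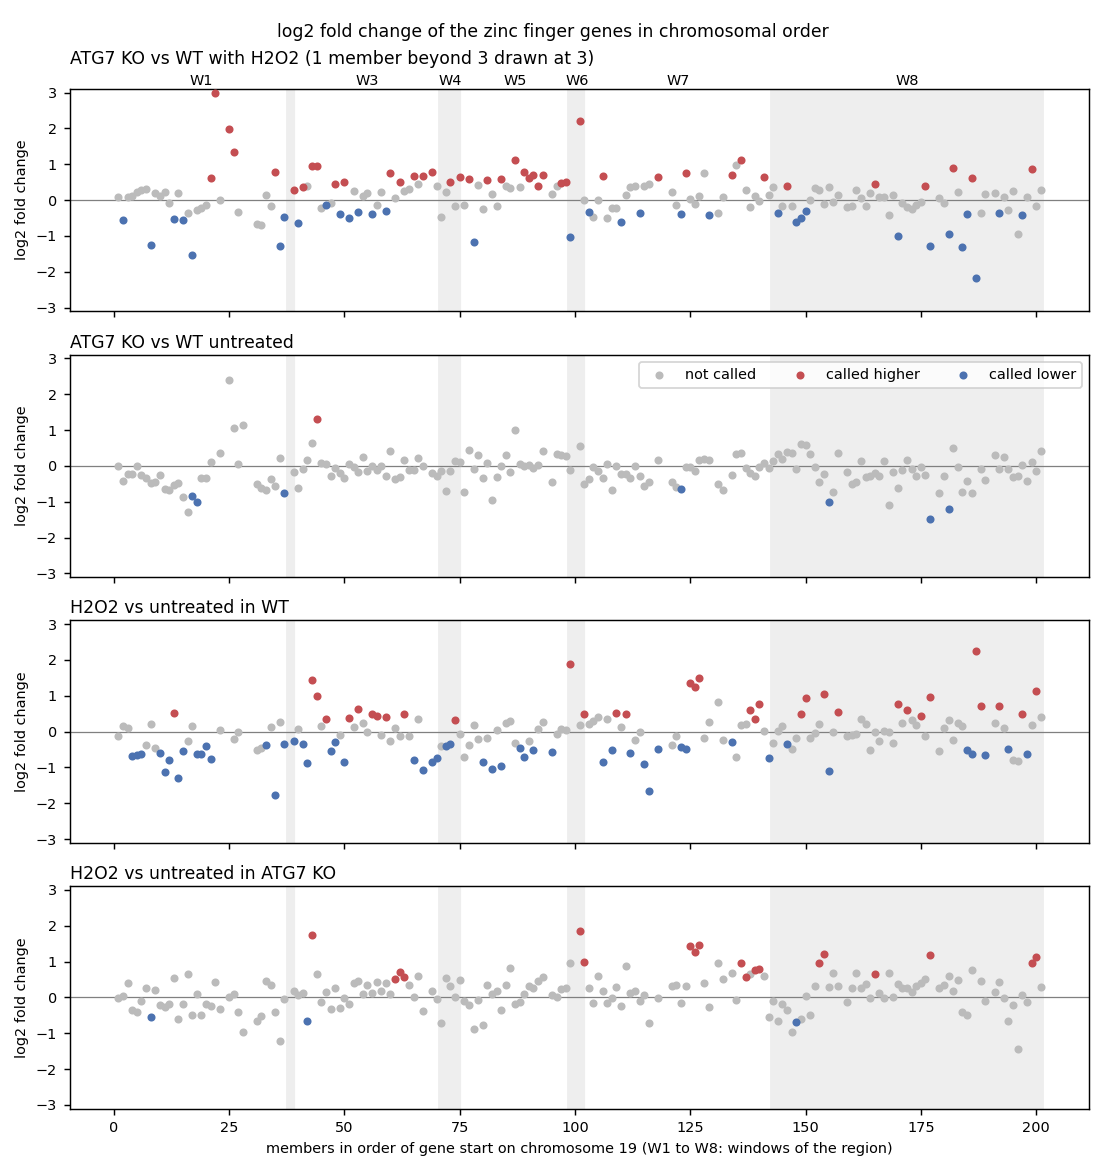
Each point is 1 member, in order of gene start along chromosome 19 on the x axis, with its log2 fold change in 1 comparison on the y axis; red members were called higher, blue lower, ZNF208 is drawn at 3, and shading separates the windows W1 to W8. In WT the members of W1 lie mostly below 0 with H2O2, with a median of -0.40 and 15 of 31 called lower.

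Many W1 members share promoter sequence. RefSeq promoters (GRCh38.p14), running from 250 bases before the start to 50 after it, were found for 172 of the 201 members. The ETS motif CCGGAAG, read as CTTCCGG on the other strand and searched on both strands, was in 92 of the 172 (53.5%), against 14.4% of 14896 promoters of protein-coding genes of the same length. In W1 it was in 21 of 29 promoters (72.4%), and in 19 of them (65.5%) it began 30 to 10 bases before the start, always as CTTCCGG on the gene's own strand. Beyond W1 that placement and strand was found in 14 of 143 member promoters, and over all protein-coding genes in 258 of 14896; on either strand these were 18 (12.6%) and 506 (3.4%). All 19 of the W1 promoters also held a CCAAT box within 100 bases before the motif, and 12 held more than 1. A match of letters is a description, not a bound site.

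The sequences below run from base -107 to base -8 before each gene's RefSeq start, 5′ to 3′ on the gene's strand, with the motif in capitals. The first 5 belong to members that fell in WT cells with H2O2, ZNF430 rose, and ZNF486 and ZNF726 were not called. They lie at chr19:23758899-23758998 (ZNF681, minus strand), chr19:20776197-20776296 (ZNF66, plus strand), chr19:20923144-20923243 (ZNF85, plus strand), chr19:21836190-21836289 (ZNF43, minus strand), chr19:21397026-21397125 (ZNF493, plus strand), chr19:21020550-21020649 (ZNF430, plus strand), chr19:20167107-20167206 (ZNF486, plus strand) and chr19:23914779-23914878 (ZNF726, plus strand). The ZNF43 window lies wholly within the longer gene model of the count table, and up to 30 bases of the ZNF85, ZNF493, ZNF430 and ZNF726 windows do. They were chosen among promoters with the motif in the printed bases, so its presence in all of them follows from that choice. Members without the motif there, whether they fell or not, are not shown. Among the promoters shown, the motif sits at nearly the same distance from the start in members that fell and in members that did not.
ZNF681: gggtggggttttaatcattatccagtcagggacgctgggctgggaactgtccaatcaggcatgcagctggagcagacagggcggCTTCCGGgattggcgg
ZNF66: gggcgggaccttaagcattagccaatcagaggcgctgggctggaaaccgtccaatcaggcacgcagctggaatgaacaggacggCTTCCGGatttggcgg
ZNF85: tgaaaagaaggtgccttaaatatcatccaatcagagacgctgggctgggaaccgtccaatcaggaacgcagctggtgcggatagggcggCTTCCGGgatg
ZNF43: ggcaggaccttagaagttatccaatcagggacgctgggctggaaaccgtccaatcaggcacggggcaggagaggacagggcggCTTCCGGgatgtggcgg
ZNF493: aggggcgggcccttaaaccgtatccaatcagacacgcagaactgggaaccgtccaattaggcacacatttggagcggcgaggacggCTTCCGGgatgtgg
ZNF430: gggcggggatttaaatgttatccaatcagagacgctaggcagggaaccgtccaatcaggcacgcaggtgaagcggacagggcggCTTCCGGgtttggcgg
ZNF486: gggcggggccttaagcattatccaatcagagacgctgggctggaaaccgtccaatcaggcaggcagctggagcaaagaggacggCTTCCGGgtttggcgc
ZNF726: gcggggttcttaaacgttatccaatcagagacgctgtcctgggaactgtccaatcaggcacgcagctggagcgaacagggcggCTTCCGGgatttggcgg

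Over the 77 bases around the motif, pairs of the 19 W1 promoters were identical at 46 to 71 positions, with a median of 63 over 171 pairs. Of the 19 genes, 17 were tested in WT with H2O2: 9 fell, ZNF430 rose and 7 were not called. Over all members with a RefSeq promoter, 22 of the 86 tested with the motif fell in WT and 17 rose, and of the 74 without it 22 fell and 13 rose, beside 30.1% of all genes tested that fell and 30.9% that rose. The RefSeq window of ZNF468, one of the members that rose in both lines, holds no such motif. It lies at chr19:52857627-52857726 on the minus strand, within the longer gene model of the count table. The RefSeq start of ZNF468 is 19 bases upstream of the 5′ end of the ZNF28 gene model, which lies on the same strand.
ZNF468: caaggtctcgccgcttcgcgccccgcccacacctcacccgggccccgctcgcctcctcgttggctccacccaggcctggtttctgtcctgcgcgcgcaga

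Other motifs were searched on both strands in the same 172 promoters. The CCAAT box was in 49.4% (36.4% of all promoters) and the NRF1 motif in 14% (8.62%). A heat shock element was in 10.5% (5.55%), an AP-1 element in 6.98% (5.78%), an antioxidant response element in 11.6% (14.3%), a CRE in 1.16% (2.59%) and a TATA box in 2.33% (9.37%).

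In cells labelled ATG7 KO, H2O2 raised long-arm genes that were also called higher in WT. ZNF30 rose 3.33-fold, ZNF468 2.78-fold, ZNF600 2.68-fold, ZNF28 2.39-fold and ZNF667 2.30-fold. ZNF114, under 1 FPKM, went from 20, 10 and 12 reads to 55, 46 and 48. It was called higher in ATG7 KO (log2 fold change 1.86, or 2.25 without ATG7 KO untreated replicate 1) and not in WT (0.20). ZNF296, called higher in WT (1.88), was not called in ATG7 KO (0.97, adjusted p = 0.022) but was called without that replicate (0.87). Of 185 members tested, 19 rose and only ZNF580, ZNF599 and ZNF486 fell (3 libraries a group). These are 10.3% and 1.62% of members, beside 13.6% up and 12.4% down of all genes tested; without ATG7 KO untreated replicate 1 they are 25.8% and 14%, beside 29.8% and 28.6%, and the difference between members and all genes was not tested. By the study's thresholds 7 rose (6 without the replicate), against 6.09% of all genes tested, and 0 fell with or without it, against 5.11%. With edgeR 84 members (99 without the replicate) had an unadjusted p under 0.05 in either direction. Over all genes tested 7952 of 15475 did (10988 of 16002 without the replicate). DESeq2 called 10 members lower at adjusted p under 0.01.

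ZNF30 stood at 2.19, 1.72 and 1.65 FPKM in untreated ATG7 KO libraries and at 5.43, 6.32 and 6.80 FPKM with H2O2. ZNF468 went from 1.17, 1.32 and 1.42 FPKM to 3.75, 3.68 and 3.50 FPKM. ZNF28 went from 2.23, 2.42 and 2.48 FPKM to 5.4, 5.79 and 5.97 FPKM. All treated libraries of these genes lay above all untreated ones, as they did for ZNF600, at 1.37, 1.17 and 1.0 FPKM before and 3.28, 3.08 and 3.15 FPKM after. The log2 fold changes were 1.74 for ZNF30 (SE 0.16, adjusted p = 0.000239), 1.47 for ZNF468 (SE 0.11, adjusted p = 9.89e-05), 1.42 for ZNF600 (SE 0.13, adjusted p = 0.000279) and 1.26 for ZNF28 (SE 0.10, adjusted p = 0.000133). Without ATG7 KO untreated replicate 1 they were 1.86, 1.40, 1.54 and 1.21, and that of ZNF667 was 1.10, against 1.20 with it.

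**Figure D3:**
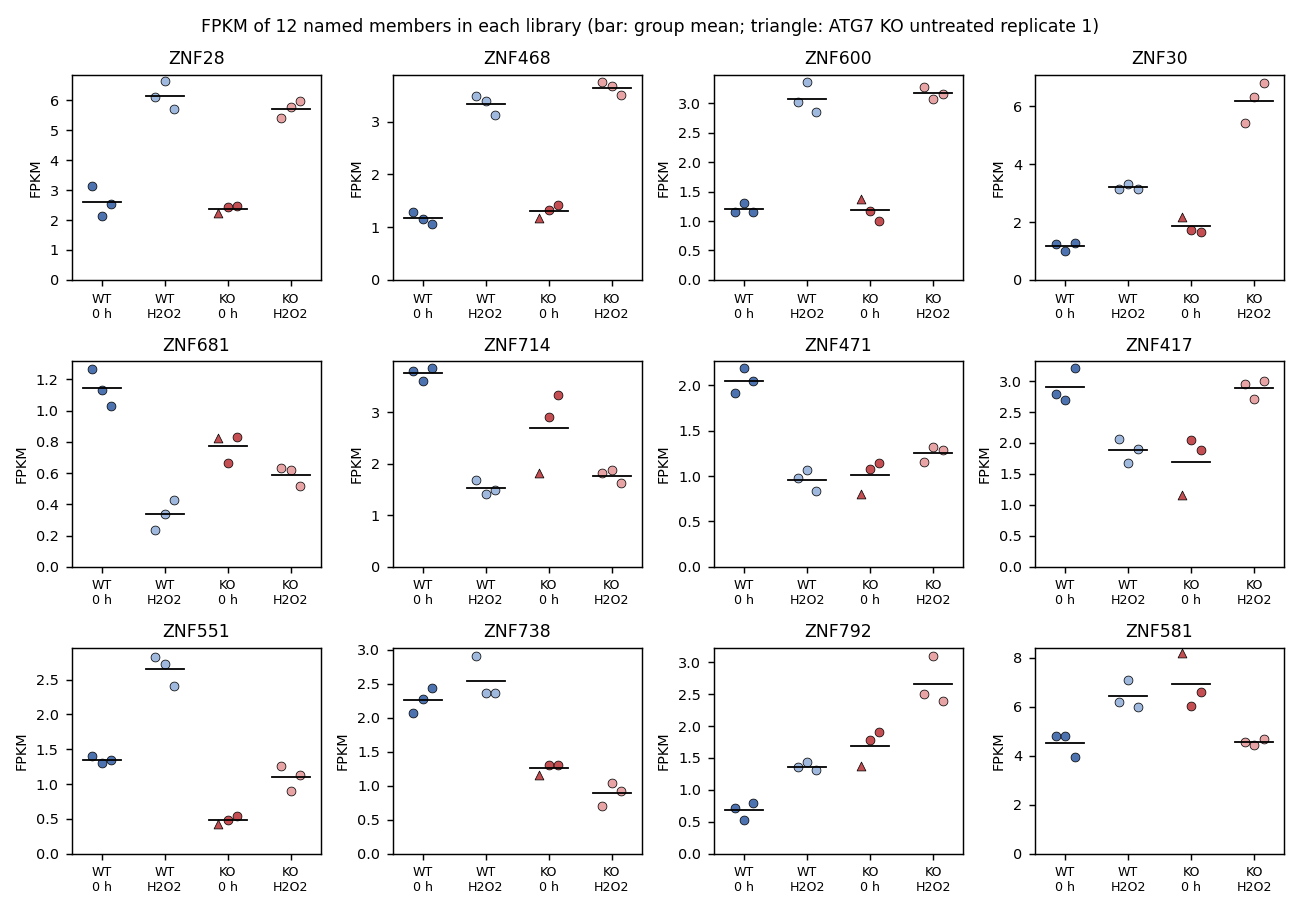
FPKM of 12 members in each of the 12 libraries, with groups on the x axis, points for libraries, bars for group means and a triangle for ATG7 KO untreated replicate 1. ZNF28, ZNF468, ZNF600 and ZNF30 are higher in every library with H2O2 than in any untreated library of the same line, while ZNF681 and ZNF471 differ between untreated and treated libraries mainly in WT.

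Without ATG7 KO untreated replicate 1, 48 of 186 members rose and 26 fell with H2O2 in ATG7 KO, against 29.8% and 28.6% of all genes tested. With that library kept, leaving out any other library gave 6 to 12 higher and 0 or 1 lower: 10 and 0 without untreated replicate 2, 12 and 1 without untreated replicate 3, and 6, 7 and 7 higher with 0 lower without H2O2 replicates 1, 2 and 3. The falls of ZNF580, ZNF599 and ZNF486, at log2 fold changes of -0.68, -0.66 and -0.54, had adjusted p of 0.00736, 0.00986 and 0.00532, and without the replicate they were -0.56, -0.59 and -0.54. In W1, ZNF486 was the 1 member of 34 called lower; without the replicate 8 of 35 fell, ZNF714 and ZNF726 among them, and 3 rose. The gene length correction gave 25 members higher and 9 lower.

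The H2O2 responses in the lines share no library and can be set side by side. In both lines 11 members rose (ZNF28, ZNF30, ZNF324, ZNF468, ZNF473, ZNF551, ZNF569, ZNF600, ZNF667, ZNF761 and ZNF765) and ZNF599 fell. That is 6.04% and 0.549% of the 182 members tested in both, beside 11.2% and 9.41% of all 14895 genes tested in both. Over 182 members the log2 fold changes had a Pearson r of 0.58 and a Spearman rho of 0.54, and 116 (63.7%) had the same sign, beside 68.7% of all genes. The points are genes, which are not independent replicates, and both axes share gene length and read depth. Without ATG7 KO untreated replicate 1, r was 0.62 and rho 0.61, and 117 members (64.3%) had the same sign, beside 73.5% of all genes. In that fit 23 members were up (12.6%) and 11 down (6.04%) in both lines and 6 (3.3%) were called in opposite directions, beside 20.2%, 19.5% and 4.41% of all genes. Those 6 were ZNF260, ZNF347, ZNF91, ZNF780B and ZNF417, down in WT and up in ATG7 KO, and ZNF581, up in WT and down in ATG7 KO.

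The test of the difference between the responses, over all 12 libraries labelled WT or ATG7 KO, asked which members answered H2O2 differently in the lines. It called 13 members with a higher response in ATG7 KO, led by ZNF471, ZNF417, ZNF681 and ZNF607, and 5 with a lower one: ZNF418, ZNF726, ZNF581, ZNF787 and ZNF486 (3 libraries a group). Of all genes tested 7.02% were higher and 7.01% lower, and of the 186 members 6.99% and 2.69%. The members' median difference was 0.25 on the log2 scale, with 129 above 0 and 57 below, against -0.03 for all genes tested.

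ZNF471 stood at 0.804, 1.08 and 1.15 FPKM in untreated ATG7 KO and at 1.15, 1.32 and 1.28 FPKM with H2O2, and its WT values are given above. Its untreated WT libraries were above those of every other group, and the difference of responses was 1.40 (SE 0.21, adjusted p = 0.000551). ZNF417 stood at 2.80, 2.69 and 3.21 FPKM in untreated WT, 2.06, 1.67 and 1.91 FPKM in WT with H2O2, 1.15, 2.06 and 1.89 FPKM in untreated ATG7 KO and 2.96, 2.71 and 3.0 FPKM in ATG7 KO with H2O2. It was lower with H2O2 in every WT library and higher in every ATG7 KO library, with a difference of 1.39 (SE 0.25, adjusted p = 0.0019). ZNF681 in ATG7 KO stood at 0.821, 0.665 and 0.831 FPKM untreated and 0.629, 0.618 and 0.515 FPKM with H2O2, levels between those of the WT groups, with a difference of 1.37 (SE 0.28, adjusted p = 0.00369).

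In the other direction, ZNF581 stood at 4.79, 4.79 and 3.96 FPKM in untreated WT and 6.18, 7.07 and 5.99 FPKM with H2O2. In ATG7 KO it stood at 8.17, 6.04 and 6.60 FPKM untreated and 4.54, 4.45 and 4.68 FPKM with H2O2. The groups of each line did not overlap and moved in opposite directions, with a difference of -1.11 (SE 0.19, adjusted p = 0.00137). ZNF581 overlaps ZNF580 on the same strand, so some reads may be shared. ZNF418 rested on few reads: 3, 8 and 2 in untreated WT, 24, 20 and 14 in WT with H2O2, 5, 10 and 8 in untreated ATG7 KO and 3, 4 and 6 in ATG7 KO with H2O2. It was highest in the 3 WT libraries with H2O2, which alone took it past the count filter, so its call (-2.99, SE 0.71, adjusted p = 0.00825) adds nothing to these reads.

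Without ATG7 KO untreated replicate 1 the test called 32 of 191 members higher and 11 lower, against 17.8% and 16.3% of all genes tested, and ZNF471, ZNF417, ZNF681, ZNF581 and ZNF418 had differences of 1.27, 1.18, 1.42, -0.97 and -3.18. With that library kept, leaving out 1 other library gave 6 to 16 higher and 2 to 4 lower: 7, 7 and 8 higher without WT untreated replicates 1, 2 and 3, and 7, 6 and 8 higher without WT H2O2 replicates 1, 2 and 3. Without ATG7 KO H2O2 replicates 1, 2 and 3 it was 7, 6 and 9 higher. With the gene length correction 8 members were higher and 6 lower, with a median of 0.18.

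Of the 18 members called, ZNF471, ZNF417, ZNF607, ZNF347, ZNF527, ZNF486 and ZNF581 kept their call whichever of the 12 libraries was left out. ZNF681 lost it without WT untreated replicate 1, WT H2O2 replicate 2 and ATG7 KO H2O2 replicates 1 and 2 (adjusted p up to 0.0119). ZNF787 lost it without WT untreated replicates 1 and 2, WT H2O2 replicates 1 and 2 and ATG7 KO H2O2 replicates 1, 2 and 3 (up to 0.0174). ZNF726 kept it only without ATG7 KO untreated replicate 1 or 2 (elsewhere up to 0.0223), and ZNF418 only without WT untreated replicate 2, WT H2O2 replicate 3 or ATG7 KO untreated replicate 1 (elsewhere up to 0.024). All 18 were called without ATG7 KO untreated replicate 1. Members with a KRAB match had a median difference of 0.30 over 155 members, with 12 higher and 3 lower. Those without had -0.09 over 31, with ZNF260 higher and ZNF581 and ZNF787 lower. Of all genes tested 7.02% were higher and 7.01% lower.

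With H2O2, cells labelled ATG7 KO had more RNA of the neighbours ZNF792 and ZNF30 than WT cells, and less of ZNF738, ZNF551 and ZNF486. ZNF792 and ZNF30 were 1.94 and 1.92 times the WT level, while ZNF738, ZNF551 and ZNF486 were at 0.348, 0.413 and 0.421 of it. Of 185 members tested, 42 were higher and 33 lower (3 libraries a group), and with all 12 libraries in the fit 31 and 18. That is 22.7% and 17.8% of members, against 27.7% and 27.9% of all genes tested. By the study's thresholds 0 members were higher, against 3.03% of all genes, and 6 were lower, against 4.43%. With edgeR 104 of the 185 members had an unadjusted p under 0.05 in either direction, beside 10708 of all 15909 genes tested. DESeq2 called 34 members higher and 26 lower at adjusted p under 0.01 with no threshold on the fold change.

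ZNF486, at chr19:20167228-20200490, stood at 7.22, 8.67 and 7.18 FPKM in WT with H2O2 and at 3.18, 3.39 and 3.18 FPKM in ATG7 KO with H2O2. ZNF551, at chr19:57681969-57717301, stood at 2.83, 2.73 and 2.41 FPKM in WT and 1.27, 0.905 and 1.13 FPKM in ATG7 KO. ZNF738, at chr19:21358930-21379302, stood at 2.91, 2.36 and 2.37 FPKM in WT and 0.703, 1.04 and 0.930 FPKM in ATG7 KO. Every ATG7 KO library was below every WT library for the 3 genes. The log2 fold changes were -1.25 (SE 0.09, adjusted p = 9.76e-14), -1.28 (SE 0.14, adjusted p = 9.41e-10) and -1.52 (SE 0.16, adjusted p = 6.67e-10). Also lower were ZNF428, ZNF296, ZNF773, ZNF586 and ZNF302, with -1.18, -1.03, -1.0, -0.94 and -0.64.

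ZNF792, at chr19:34956354-34964049, stood at 1.35, 1.44 and 1.30 FPKM in WT with H2O2 and at 2.50, 3.09 and 2.4 FPKM in ATG7 KO with H2O2. ZNF30, its neighbour, stood at 5.43 to 6.80 FPKM in ATG7 KO with H2O2, above the 3.13 to 3.31 FPKM of WT. The groups did not overlap for either gene, with log2 fold changes of 0.95 (SE 0.13, adjusted p = 2.17e-07) and 0.94 (SE 0.11, adjusted p = 9.57e-09). Also higher were ZNF552, ZNF324B, ZNF607, ZNF611, ZNF585B and ZNF347, with 0.90, 0.87, 0.79, 0.76, 0.75 and 0.71. In W5 11 of 22 members were higher and only ZNF428 lower, beside 27.7% and 27.9% of all genes tested, with a median of 0.41. ZNF225, ZNF226, ZNF234 and ZNF45, which lie close together there, had 0.79, 0.71, 0.60 and 0.56. The count in W5 fell to 7 higher by DESeq2, with all 12 libraries in the fit and without WT H2O2 replicate 1. The difference of the H2O2 responses was above 0 for 21 of the 22 members of W5 (20 of 23 without ATG7 KO untreated replicate 1) and for 8062 of all 16856 genes tested, with ZNF226 called (0.76, adjusted p = 0.00943; 0.85 without that replicate, when 3 of 23 were higher and 1 lower). Leaving out any other library ended the call of ZNF226, with adjusted p up to 0.0276.

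Untreated, cells labelled ATG7 KO again had less RNA of ZNF551 and more of ZNF792 than WT. ZNF551 was at 0.357 of the WT level, ZNF586 at 0.433, ZNF471 at 0.494, ZNF493 at 0.501 and ZNF738 at 0.556, and ZNF792 was 2.48 times the WT level. Of 184 members tested, ZNF792 was called higher and 7 lower, the 5 above with ZNF254 and ZNF83 (3 libraries a group). Of all genes tested 4.42% were higher and 3.28% lower; by the study's thresholds 1 member was higher and 3 lower, with or without ATG7 KO untreated replicate 1, against 2.27% and 1.23% of all genes.

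ZNF551 stood at 1.40, 1.30 and 1.34 FPKM in untreated WT and 0.425, 0.477 and 0.539 FPKM in untreated ATG7 KO. ZNF738 stood at 2.07, 2.28 and 2.44 FPKM in WT and 1.16, 1.31 and 1.30 FPKM in ATG7 KO. ZNF792 stood at 0.718, 0.526 and 0.798 FPKM in WT and 1.37, 1.78 and 1.90 FPKM in ATG7 KO. The lines did not overlap for any of the 3. The log2 fold changes were -1.48 (SE 0.17, adjusted p = 0.00142), -0.85 (SE 0.14, adjusted p = 0.00714) and 1.31 (SE 0.22, adjusted p = 0.00714). Without ATG7 KO untreated replicate 1 they were -1.40, -0.79 and 1.44, and those of ZNF586, ZNF471 and ZNF493, at -1.21, -1.02 and -1.0 with it, were -1.08, -0.87 and -0.92.

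Without that replicate 11 of 186 members were higher and 30 lower in untreated ATG7 KO, against 18.2% and 17.9% of all genes tested. With it kept, 0 members were called in either direction by edgeR when WT untreated replicate 1, 2 or 3 was left out, and 1 and 2 were called lower without ATG7 KO untreated replicates 2 and 3. At an unadjusted p under 0.05 edgeR gave 53 members in the full comparison and 68 without ATG7 KO untreated replicate 1. Over all genes tested it gave 5048 of 15357 and 8026 of 15848. In the full comparison DESeq2 called 3 higher and 16 lower. W1 had a median log2 fold change of -0.36 over 33 members, with ZNF493, ZNF738 and ZNF254 called lower. Without the replicate its median was -0.26, with 12 of 34 lower and 4 higher. The median level of W1 was 2.59 to 2.83 log2 CPM in untreated ATG7 KO and 2.65 to 2.91 with H2O2, so it was below that of untreated WT in both groups.

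The comparisons of the lines with and without H2O2 share no library. ZNF792 was higher in ATG7 KO in both, and ZNF551, ZNF586, ZNF738, ZNF254 and ZNF83 were lower in both, beside 3.23% and 2.45% of all genes tested in both. Over 183 members r was 0.51 and rho 0.38 across genes, which are not independent replicates and share gene length and depth, and 102 (55.7%) had the same sign, beside 55.2% of all genes. Without ATG7 KO untreated replicate 1, r was 0.73 and rho 0.45 over 184 members, 113 had the same sign, 7 were higher (3.8%) and 14 lower (7.61%) in both, and 4 (2.17%) were called in opposite directions, beside 10.3%, 9.71% and 6.12% of all genes. The 7 include ZNF208 and ZNF729, which were almost unread in WT and so add no weight to that count. ZNF208 lies far from the other points, and its part in r was not tested.

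ZNF208 and ZNF729, in W1 near 22 Mb, were almost silent in WT and read more often in cells labelled ATG7 KO; they and their neighbours were chosen after their values were seen. ZNF208, which encodes the most fingers of all members, had 0 reads in all 3 untreated WT libraries, 0, 1 and 0 in WT with H2O2, 6, 21 and 16 in untreated ATG7 KO and 25, 11 and 20 in ATG7 KO with H2O2. ZNF729 had 5, 2, 1, 2, 6 and 2 reads in the WT libraries and 10, 16, 17, 18, 10 and 14 in the ATG7 KO libraries. Every ATG7 KO library was above every WT library for both genes. They passed the count filter through the ATG7 KO libraries alone, so their calls among the 42 members higher with H2O2, and among the 11 higher untreated without ATG7 KO untreated replicate 1, add nothing to these reads. ZNF98 had 17, 22, 25, 15, 22 and 14 reads in the WT libraries, 21 in ATG7 KO untreated replicate 1 and 57, 54, 40, 56 and 39 in the other ATG7 KO libraries, so the first of these lay within the WT range. ZNF257, which lies between ZNF208 and ZNF729, had 50, 41 and 52 reads in untreated WT and 62, 55 and 65 in untreated ATG7 KO, and 49, 39 and 48 against 31, 64 and 46 with H2O2. ZNF676 had 4, 1, 0, 0, 3 and 4 reads in the WT libraries and 6, 5, 9, 6, 15 and 18 in the ATG7 KO libraries. ZNF99 had 17, 8 and 6 in untreated WT and 11, 28 and 29 in untreated ATG7 KO, and 1, 4 and 1 against 9, 13 and 11 with H2O2. ZNF728, farther along, had 5, 5, 1, 5, 2 and 7 reads in the WT libraries and 0 in all 6 ATG7 KO libraries, too few to be tested. Genes of this cluster resemble each other in sequence, and how reads that fit several places were handled is not known.

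Set beside other genes, the members had medians on the same side of 0 as the ZNF genes outside the region, and opposite to the other genes of the region. The median log2 fold change of members was 0.11 for ATG7 KO against WT with H2O2, -0.14 untreated, -0.06 for H2O2 in WT and 0.16 for H2O2 in ATG7 KO. For 314 protein-coding ZNF genes elsewhere, of which 268 to 272 were tested, these medians were 0.09, -0.11, -0.10 and 0.18. For the other 766 protein-coding genes of the same region, 426 to 455 of them tested, they were -0.10, 0.12, 0.09 and -0.22. For the difference of responses the medians were 0.25, 0.22 and -0.22. The members had, without ATG7 KO untreated replicate 1, -0.08 untreated, 0.13 for H2O2 in ATG7 KO and 0.20 for the difference, ZNF genes elsewhere -0.06, 0.13 and 0.16, and the other genes of the region 0.06, -0.11 and -0.13. With all libraries kept, the signs of these medians held under both other scalings tried, which were not run without that replicate, and the largest shift of the median of all genes was to -0.10, with upper quartile scaling of the H2O2 response in ATG7 KO. With the gene length correction, the members' medians were 0.05 for ATG7 KO against WT with H2O2, -0.08 untreated, -0.01 for H2O2 in WT, 0.19 for H2O2 in ATG7 KO and 0.18 for the difference. Those of ZNF genes elsewhere were then 0.07, -0.09, 0.01, 0.19 and 0.15, so their sign changed in the WT response, and those of the other genes of the region -0.07, 0.11, 0.05, -0.16 and -0.17.

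**Figure D4:**
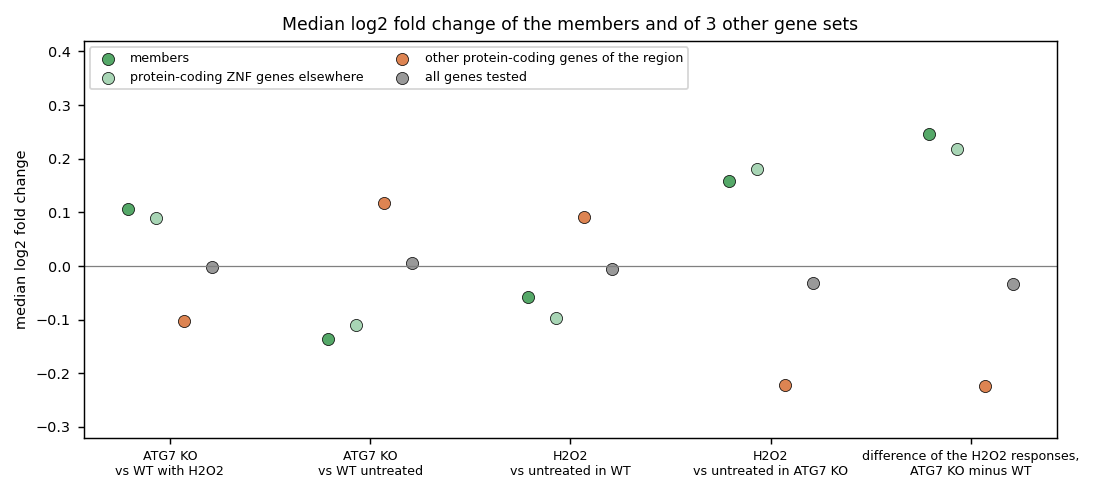
Median log2 fold change on the y axis for the members, the other protein-coding ZNF genes, the other protein-coding genes of the region and all genes tested, in each of the 5 comparisons on the x axis. The members (for example 0.25 for the difference of responses) and ZNF genes elsewhere (0.22) lie on the same side of 0 in each comparison, opposite to the genes of the region (-0.22).

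The co-repressor machinery that KRAB proteins use was listed as 24 genes, all of them tested. TRIM28 stood at 93.1, 94.5 and 92.5 FPKM in untreated WT and 129, 130 and 122 FPKM with H2O2, and at 121, 107 and 104 FPKM in untreated ATG7 KO and 138, 139 and 135 FPKM with H2O2. It rose with H2O2 in WT, by 0.44 on the log2 scale (SE 0.04, adjusted p = 4.02e-13), while SETDB1 fell by 0.34 and CBX5, a heterochromatin protein gene, fell by 1.07. In WT with H2O2 4 of the 24 rose and 11 fell, beside 30.9% and 30.1% of all genes tested. In ATG7 KO 1 rose and 2 fell (13.6% and 12.4%), CBX5 among them at -1.10, or 7 and 8 (29.8% and 28.6%) without ATG7 KO untreated replicate 1, with CBX5 at -1.30. Between the lines 10 were higher and 8 lower in ATG7 KO with H2O2 (27.7% and 27.9% of all genes), UHRF1 at -0.74 the lowest. Untreated, only ATF7IP2 was called (4.42% higher and 3.28% lower over all genes), at -1.15, or -1.11 without the replicate, when 7 were higher and 5 lower (18.2% and 17.9%). For the difference of responses TRIM28 had -0.13 (SE 0.10, adjusted p = 0.348), and edgeR called 0 of the 24 with all 12 libraries. At an unadjusted p under 0.05 edgeR gave 11 of the 24, beside 7175 of all 16856 genes tested. DESeq2 called 1 of the 24 higher and 1 lower. Without the replicate TRIM28 had -0.06 (adjusted p = 0.404), and 6 of the 24 were called higher and 5 lower (17.8% and 16.3% of all genes).

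Of 16 other C2H2 genes of the region without the ZNF prefix, 9 were tested. In WT with H2O2 only TSHZ3 rose (0.83), and ZFP14, MZF1 and ZSCAN22 fell, ZFP14 by 1.48 on the log2 scale (adjusted p = 6.41e-11), beside 30.9% and 30.1% of all genes tested. In ATG7 KO with H2O2 4 were higher than in WT, with ZFP14 at 1.13 and TSHZ3 at 1.04, and ZFP28 and ZSCAN5A lower, beside 27.7% and 27.9%.

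Over the members, the log2 fold change between ATG7 KO and WT with H2O2 had a Spearman rho of 0.22 with the number of C2H2 fingers (185 members), and the difference of responses had 0.23 (186 members). Untreated it was -0.06 (184 members), and for H2O2 it was -0.13 in WT (183 members) and 0.12 in ATG7 KO (185 members). With gene length these 5 values were 0.06, 0.16, -0.12, -0.06 and 0.10. With the length of the encoded protein they were 0.22, 0.18, -0.0017, -0.04 and 0.17, so finger number did not stand apart from protein length. The points are genes measured in the same libraries, and the values are descriptions.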

How the data were processed

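The values are the deposited raw counts, with the authors' FPKM for levels and 1 alternative. The submitters name HISAT2 2.0.5 and featureCounts 1.5.0-p3; strand and multi-mapping settings are not given in the sources used here. Genes were filtered with filterByExpr (minimum count 10), scaled by TMM and tested with edgeR 4.0.16 quasi-likelihood in R 4.3.3, pairwise on 6 libraries and the difference of responses on all 12. P was adjusted by Benjamini-Hochberg over all genes tested and called under 0.01. Shares of all genes come from edgeR, and the DESeq2 counts stand without such shares. limma 3.58.1, DESeq2 1.42.0, Python 3.11.15, pandas 2.3.3 and matplotlib 3.10.9 were also used. Named members are the highest by FPKM, the widest and narrowest in range of group means (ZNF30 and ZNF101), and the strongest calls of each comparison. In the pairwise comparisons those calls were taken among members over 1 FPKM in a group whose replicates did not overlap between the groups. The FPKM limit left out, among others, ZNF418 and ZNF66 (-1.11) in WT and ZNF114 in ATG7 KO. Between the lines with H2O2 it left out ZNF814 (-1.31), ZNF208 (5.31), ZNF729 (1.98) and ZNF98 (1.35), among others. Domains come from GENCODE 29 coding sequences, promoters from RefSeq. The KRAB pattern was widened after a narrower one missed known KRAB genes, and motif positions and the CCAAT stretch were chosen after values were seen. Members and lists were chosen with earlier results of these data known.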

Additional observations from a re-analysis of the deposited data

Results flagged for a closer look

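The H2O2 responses of 18 members differed between the lines, as tested by the interaction over all 12 libraries (adjusted p under 0.01; 3 libraries a group). They are 6.99% higher and 2.69% lower of 186 members, beside 7.02% and 7.01% of all genes tested. Values are log2 fold change with H2O2 in ATG7 KO minus that in WT.

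The response was higher in ATG7 KO for ZNF471 (1.40), ZNF417 (1.39), ZNF681 (1.37), ZNF607 (1.0), ZNF347 (0.97), ZNF780B (0.95), ZNF382 (0.84), ZNF91 (0.82), ZNF527 (0.82), ZNF226 (0.76), ZNF160 (0.75), ZNF583 (0.73) and ZNF260 (0.54).

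The response was lower in ATG7 KO for ZNF486 (-0.77), ZNF787 (-0.89), ZNF581 (-1.11), ZNF726 (-1.50) and ZNF418 (-2.99). ZNF418 had no more than 24 reads in any library and passed the count filter only through the WT libraries with H2O2.

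All 18 were called without ATG7 KO untreated replicate 1. Leaving out each of the 12 libraries in turn, ZNF471, ZNF417, ZNF607, ZNF347, ZNF527, ZNF486 and ZNF581 were called in all 12 fits and ZNF260 in 11, ZNF681 in 8, ZNF780B in 7, ZNF787 in 5, ZNF382 and ZNF583 in 4, ZNF91, ZNF160 and ZNF418 in 3, ZNF726 in 2 and ZNF226 in 1.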

How the results depend on the processing

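Of 249 values recomputed under other choices, 150 were the same and 99 moved. For single members, 693 of 781 values were the same, 88 were weaker and 0 were reversed; 72 of the 88 came from leaving out a library and 10 from the replicate block. The cause was not tested.

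For ATG7 KO against WT with H2O2, the members' median log2 fold change of 0.11 was 0.064 with upper quartile scaling, 0.12 with no filter, 0.072 with at least 10 counts in every library, 0.052 with gene length correction and 0.062 with limma on FPKM. With all 12 libraries in the fit 18 members were lower. Leaving out each library in turn gave 34 to 44 higher, 26 to 35 lower and a median of 0.076 to 0.11.

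For ATG7 KO against WT untreated (1 higher, 7 lower, median -0.14), DESeq2 gave 3 higher and 16 lower, no filter 2 higher, and all 12 libraries 6 higher and 20 lower. The replicate block gave 0 higher and 1 lower, gene length correction 11 lower with a median of -0.082, and limma a median of -0.085. Leaving out each library gave 0 to 11 higher, 0 to 30 lower and -0.18 to -0.078. An added alternative, chosen after seeing the data, joined the length correction with leaving out ATG7 KO untreated replicate 1: it gave 11 higher, 26 lower and -0.062.

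For H2O2 in WT (median -0.06), the median was -0.027 with at least 10 counts, -0.0088 with length correction and -0.024 with limma, and 29 were lower with all 12 libraries. Leaving out each library gave 32 to 36 higher, 42 to 49 lower and -0.091 to -0.043.

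For H2O2 in ATG7 KO (19 higher, 3 lower, median 0.16), upper quartile scaling gave 7 lower and 0.094, DESeq2 31 higher and 10 lower, no filter 7 lower, and all 12 libraries 36 higher and 14 lower. The replicate block gave 12 higher and 0 lower, length correction 9 lower and 0.19, and limma 0.083. Leaving out each library gave 6 to 48 higher, 0 to 26 lower and 0.13 to 0.19. The added alternative gave 51 higher and 24 lower.

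For the difference of responses (13 higher, 5 lower, median 0.25), the median was 0.21 with upper quartile scaling, 0.20 with at least 10 counts and 0.12 with limma. The replicate block gave 3 lower, and length correction 8 higher and 0.18. Leaving out each library gave 6 to 32 higher, 2 to 11 lower and 0.20 to 0.29. The added alternative gave 21 higher, 13 lower and 0.18.

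The labels do not say whether same-numbered replicates were handled together. Deviations of same-numbered libraries from their group means correlated at -0.04 to 0.08 over 16856 genes, which cannot show that they were handled apart.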
